A study of Mus musculus with 24 samples.

Results

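The genes described here encode the vacuolar proton pump (V-ATPase), the proteins of the lysosomal membrane and the machinery that delivers enzymes to lysosomes. There are 37 of them, of 43626 genes listed in the series, chosen by symbol: 18 belong to the V-ATPase (9 of its V1 sector, 7 of its V0 sector and 2 accessory subunits) and 19 are other lysosomal genes. They were measured in mouse embryonic fibroblasts (MEFs, passage 2), wild type or Mof knockout (MofKO), and in differentiated MPC5 podocytes (passage 20), a line of mouse glomerular podocytes, with a scramble control or a Mof knockdown. The gene Kat8 encodes MOF, an enzyme that acetylates histone H4. Each genotype was given vehicle (DMSO) or Adriamycin (doxorubicin, a drug that damages DNA) for 24 h, at 0.1 µg/ml in MEFs and 0.25 µg/ml in podocytes, in 8 groups of 3 samples. How the knockout and the knockdown were made is not in the labels. Neither is whether the 3 samples of a group came from 3 cultures; the p-values then reflect only the spread among these samples, possibly technical. The data are 4 comparison tables made by the authors with DESeq2, Mof-depleted against control within 1 cell type and drug condition. They hold no value per sample, so the error of every fold change is its deposited standard error (SE) and no library's depth can be read.

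The V-ATPase is a rotary motor. Its cytosolic V1 sector hydrolyses ATP, and its membrane-embedded V0 sector carries protons into the lumen, which keeps lysosomes acidic and their hydrolases active. The surrounding membrane is covered by glycoproteins such as LAMP1 and LAMP2 and holds the channels and exporters that release ions, amino acids, sugars, vitamins and cholesterol. Newly made hydrolases receive a mannose 6-phosphate tag in the Golgi and are carried to lysosomes by its receptors. Many of these genes carry in their promoters the CLEAR element, whose core is CACGTG and which is bound by TFEB and its relatives.

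The promoters are shown because most of these genes moved together in the comparisons below. RefSeq promoter sequences of build GRCm38.p6, from 250 bases before to 50 bases after the start site, were found for 29 of the 37 genes. The core CACGTG (its own reverse complement, so a search of either strand is the same) stood in 9 of the 29 (31.0%), against 8.09% of all 27025 genes in the promoter table and 11.5% of the 10584 genes tested in MEFs with vehicle that have an entry. Each of those 9 genes also held the longer TCACGTG or its reverse complement CACGTGA (which contain the core). Either form was found in 4.29% of all genes and 6.75% of the 10584 tested genes. The palindrome with both flanks and a further G before and C after them stood in 2 of the 29, Cln3 and Igf2r. Its share was 0.370% of all genes and 0.794% of the 10584 tested genes. The Lamp1 promoter held 4 cores within the last 61 bases before the start site. The 250 bases before the Lamp1 start site, chr8:13158911-13159160 on the + strand, are given here with the cores in capitals.
Lamp1: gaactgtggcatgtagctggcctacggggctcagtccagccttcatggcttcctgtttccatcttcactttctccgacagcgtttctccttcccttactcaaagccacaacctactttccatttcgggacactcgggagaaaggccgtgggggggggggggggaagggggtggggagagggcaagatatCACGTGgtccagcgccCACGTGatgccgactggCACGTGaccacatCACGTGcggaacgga

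The 8 other genes with a match are shown as windows of 30 bases on the strand of the gene, with the motif, or both its forms where they overlap, in capitals.
Atp6v0b, chr4:117887349-117887378, - strand: tgtgcgcgggggTCACGTGgggtcggcgca
Atp6v0d1, chr8:105566050-105566079, - strand: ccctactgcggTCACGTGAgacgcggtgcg
Atp6v0e, chr17:26676387-26676416, + strand: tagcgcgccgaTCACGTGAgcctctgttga
Atp6v1a, chr16:44139373-44139402, - strand: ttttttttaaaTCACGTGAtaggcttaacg
Mcoln1, chr8:3500462-3500491, + strand: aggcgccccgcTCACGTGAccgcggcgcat
Cln3, chr7:126583340-126583369, - strand: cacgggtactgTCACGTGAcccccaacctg
Igf2r, chr17:12769696-12769725, - strand: gccgactcaggTCACGTGAcgctccgggga
Gnptg, chr17:25240120-25240149, - strand: ccggctgtcacTCACGTGAccgtgagaccc
Atp6v0b, Mcoln1, Cln3 and Igf2r held a further core in the same promoter. A match is a description of the letters and not a site shown to be bound. In the authors' deposited tables, the 9 genes with a core had a median log2 fold change of 0.76 in MEFs with vehicle and 0.49 with Adriamycin, and the 20 without had medians of 0.57 and 0.45. Over all genes tested in MEFs with a promoter entry, the medians with a core were 0.06 and 0.06. Those without a core were -0.02 and -0.03, in the authors' deposited tables. Whether the core had a part in any of these values was not tested. In podocytes with Adriamycin the medians were -0.48 for the 6 listed genes with a core and -0.67 for the 13 without, in the authors' deposited table.

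Kat8 checks the targeting: in the authors' deposited tables its log2 fold change in MEFs was -1.96 ± 0.20 (SE) under vehicle and -1.71 ± 0.16 under Adriamycin. In podocytes the authors' deposited tables gave -1.49 ± 0.15 and -1.24 ± 0.14. The direction of every table was itself read from this sign. The fibroblast markers fixed for the MEFs were all measured there (12 of 12, with summed mean counts of 542492 and 412803 in the vehicle and Adriamycin tables). In both MEF tables, 2 were higher and 3 lower: by the authors' deposited vehicle table Lum (2.42 ± 0.21) and Dcn (1.42 ± 0.17) rose and Col6a1 (-0.51 ± 0.10), Col1a2 (-0.33 ± 0.11) and Col5a1 (-0.24 ± 0.09) fell. Of 14 podocyte markers, 3 were listed in the podocyte vehicle table and 8 in the Adriamycin table, among them Synpo and Podxl. The slit diaphragm gene Nphs1 was listed in neither, and since the podocyte tables hold only genes past an adjusted p of 0.05, its level cannot be read.

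The first comparison asked how these genes stood in MofKO MEFs when no drug was given. In RNA, the genes of the pump and of the lysosomal membrane mostly rose together: 27 of the 37 genes were higher in the knockout and 0 lower. All 37 were tested. Of all 15605 genes tested, 17.8% were higher and 19.6% lower (adjusted p of DESeq2 below 0.05 in the authors' deposited table). At an unadjusted p below 0.05 the counts were 28 higher and 1 lower, the latter Abcb9. The median log2 fold change of the 37 was 0.57 in the authors' deposited table, against 0.01 over all genes tested.

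The V1 sector rose in 8 of its 9 members under vehicle. The catalytic subunit A, Atp6v1a (GRCm38 chromosome 16, 44085402 to 44139705), rose by 0.89 ± 0.08 (SE) on the log2 scale, or 1.85-fold (adjusted p 1.82e-27, authors' deposited table). Its partner in the ATP-splitting ring, subunit B (Atp6v1b2), rose by 0.73 ± 0.09. The central rotor subunits D and F rose by 0.82 ± 0.11 (Atp6v1d) and 0.56 ± 0.13 (Atp6v1f), and the stalk subunits E and G by 0.72 ± 0.09 (Atp6v1e1) and 0.76 ± 0.08 (Atp6v1g1), in the authors' deposited table. The subunits that link and regulate the sectors, C (Atp6v1c1, 0.52 ± 0.10) and H (Atp6v1h, 0.45 ± 0.09), rose least of the 8 that passed. These 8 subunits thus lay between 0.45 and 0.89. The exception was Atp6v1g2, the neuronal form of subunit G, at -0.26 ± 0.31 (adjusted p 0.548, authors' deposited table).

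Of the V0 sector, 5 of 7 members rose under vehicle. Subunit d, which couples the rotor to the proteolipid ring, rose most (Atp6v0d1, 0.80 ± 0.09, adjusted p 1.33e-16, authors' deposited table). The ring proteolipids Atp6v0b (0.76 ± 0.09) and Atp6v0c (0.56 ± 0.07) rose, as did the small subunit Atp6v0e (0.40 ± 0.08), in the authors' deposited table. The large subunit a, which forms the proton path and sets where the pump goes, exists in several forms that moved unequally in the authors' deposited table: Atp6v0a1 rose by 0.58 ± 0.12, while Atp6v0a2 was at 0.03 ± 0.08 (adjusted p 0.791). Atp6v0e2, the sister of Atp6v0e, was at -0.25 ± 0.24 (adjusted p 0.447) in the authors' deposited table. Both accessory subunits rose, Atp6ap1 by 0.71 ± 0.08 and Atp6ap2, the prorenin receptor (chromosome X, 12587801 to 12617049), by 1.09 ± 0.09 (2.13-fold, adjusted p 3.21e-30) in the authors' deposited table. Of the 3 forms that did not pass, 2 were scarce: per kb of merged exons, the mean normalized count in the authors' deposited vehicle table was 16.9 for Atp6v1g2 and 70.5 for Atp6v0e2, against 1892 for Atp6v1g1 and 461 for Atp6v0e. Atp6v0a2, at 195 per kb beside 263 for Atp6v0a1, was not.

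The genes of the membrane glycoproteins rose under vehicle, 4 of 4. Lamp2 (chromosome X, 38401357 to 38456454) rose by 0.97 ± 0.08 (1.96-fold, adjusted p 5.12e-30), and Lamp1 (chromosome 8, 13159161 to 13175338) by 0.76 ± 0.08 (adjusted p 7.19e-22), in the authors' deposited table. Scarb2, which carries glucocerebrosidase to lysosomes, rose by 0.78 ± 0.13, and the tetraspanin gene Cd63 by 0.54 ± 0.07, in the authors' deposited table. Lamp1 had the highest level per kb of all 37 genes in both MEF tables, with 7118 and 10251 normalized counts per kb.

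Cholesterol leaves lysosomes through NPC2, a soluble carrier in the lumen, and NPC1 in the membrane. Npc2 (chromosome 12, 84754562 to 84773152) rose by 1.12 ± 0.07 (2.17-fold), the largest rise and the smallest adjusted p (1.87e-50) of all 37 by the authors' deposited vehicle table. Npc1 rose by 0.38 ± 0.09 (adjusted p 0.000330) in the authors' deposited table. Its exons share 511 of their 11317 bases with Rmc1 on the opposite strand, which rose by 0.48 ± 0.12, and its part in the Npc1 value was not tested.

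Channels and exporters were mixed under vehicle: 3 of 6 rose. Mcoln1, the lysosomal calcium channel, rose by 0.84 ± 0.12, the cystine exporter gene Ctns by 0.75 ± 0.18 and the sialic acid exporter gene Slc17a5 by 0.44 ± 0.15 in the authors' deposited table. Lmbrd1, needed for vitamin B12 export, was at 0.10 ± 0.12 and Cln3, mutated in juvenile Batten disease, at 0.10 ± 0.20; neither passed in the authors' deposited table. Abcb9, a peptide transporter, was at -0.75 ± 0.37 (adjusted p 0.0982) and the lowest mean normalized count of the 37, 29.4, in the authors' deposited table. Laptm4b (1.06 ± 0.12), Laptm4a (0.68 ± 0.06) and Tmem192 (0.45 ± 0.12), all small membrane-spanning proteins of late endosomes and lysosomes, rose in the authors' deposited table.

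Among the 4 tagging and sorting genes, 0 passed the adjusted p of DESeq2 under vehicle and 1, Igf2r, had an unadjusted p below 0.05. By the authors' deposited table, the phosphotransferase subunits Gnptab and Gnptg, which build the tag, were at 0.09 ± 0.09 and 0.13 ± 0.15, and the small receptor gene M6pr at 0.00 ± 0.10. Igf2r, the large receptor, was at 0.57 ± 0.26 (adjusted p 0.0767) in the authors' deposited table, near the median of the 37.

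**Figure D1:**
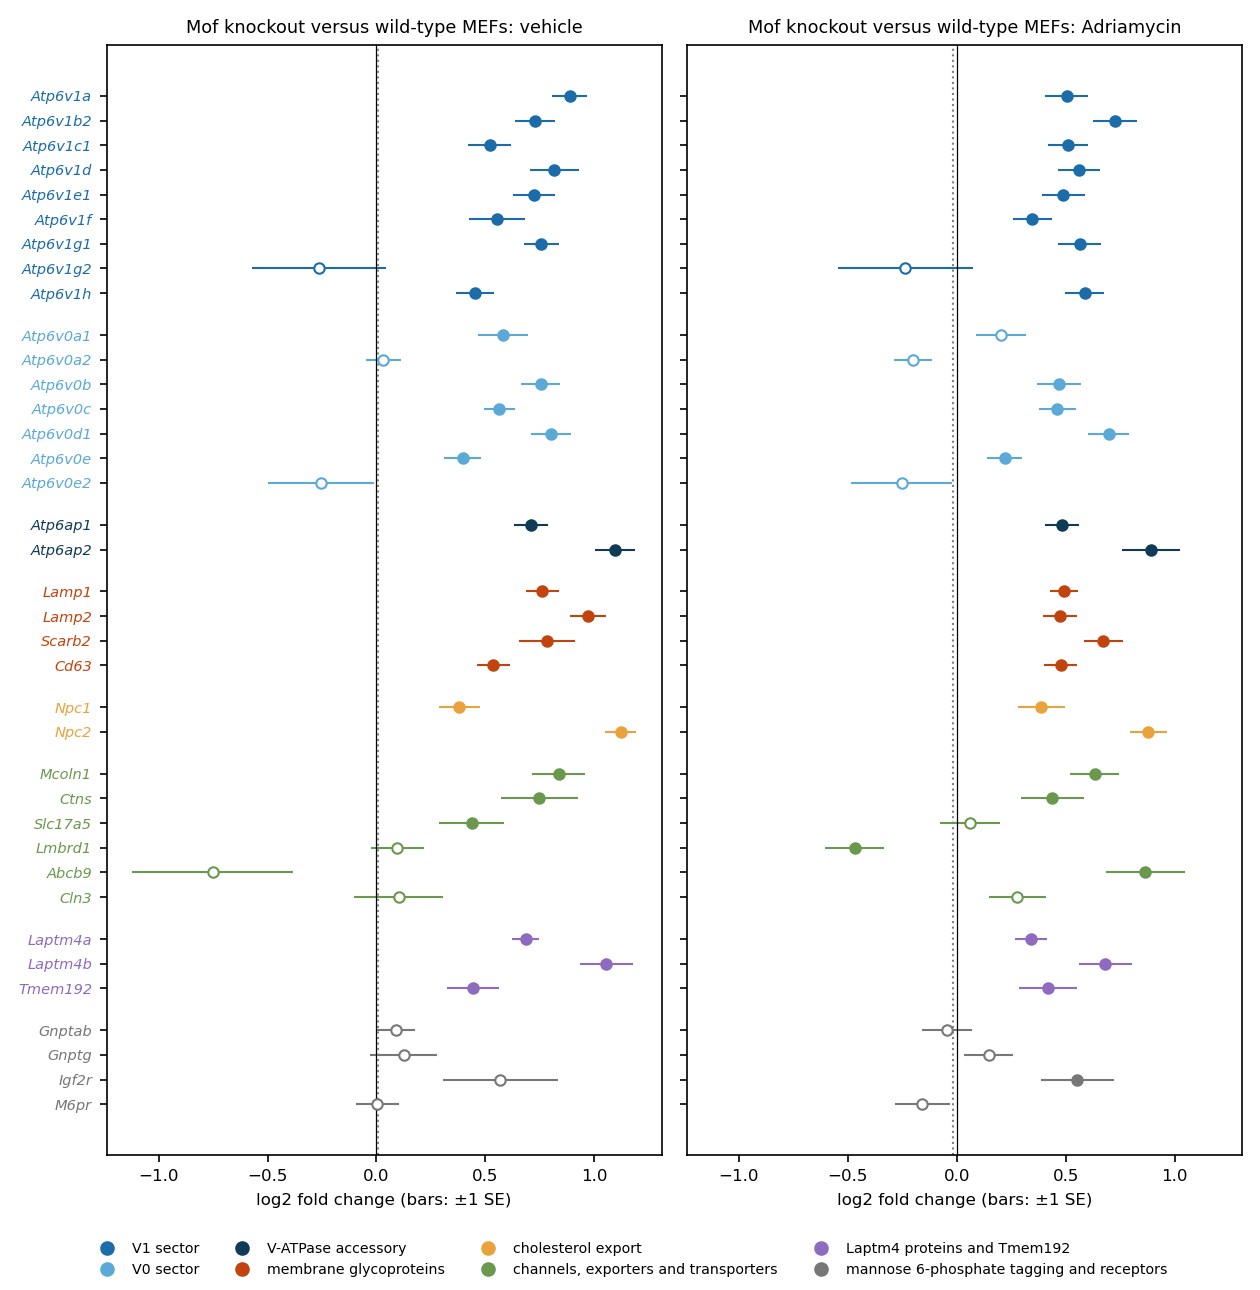
The log2 fold change of each of the 37 genes in MofKO over wild-type MEFs is plotted for vehicle (left) and Adriamycin (right), with bars of 1 SE. Filled points passed an adjusted p of 0.05, the dotted line is the median of all genes tested, and the 27 filled points on the left all lie above 0.

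**Figure D2:**
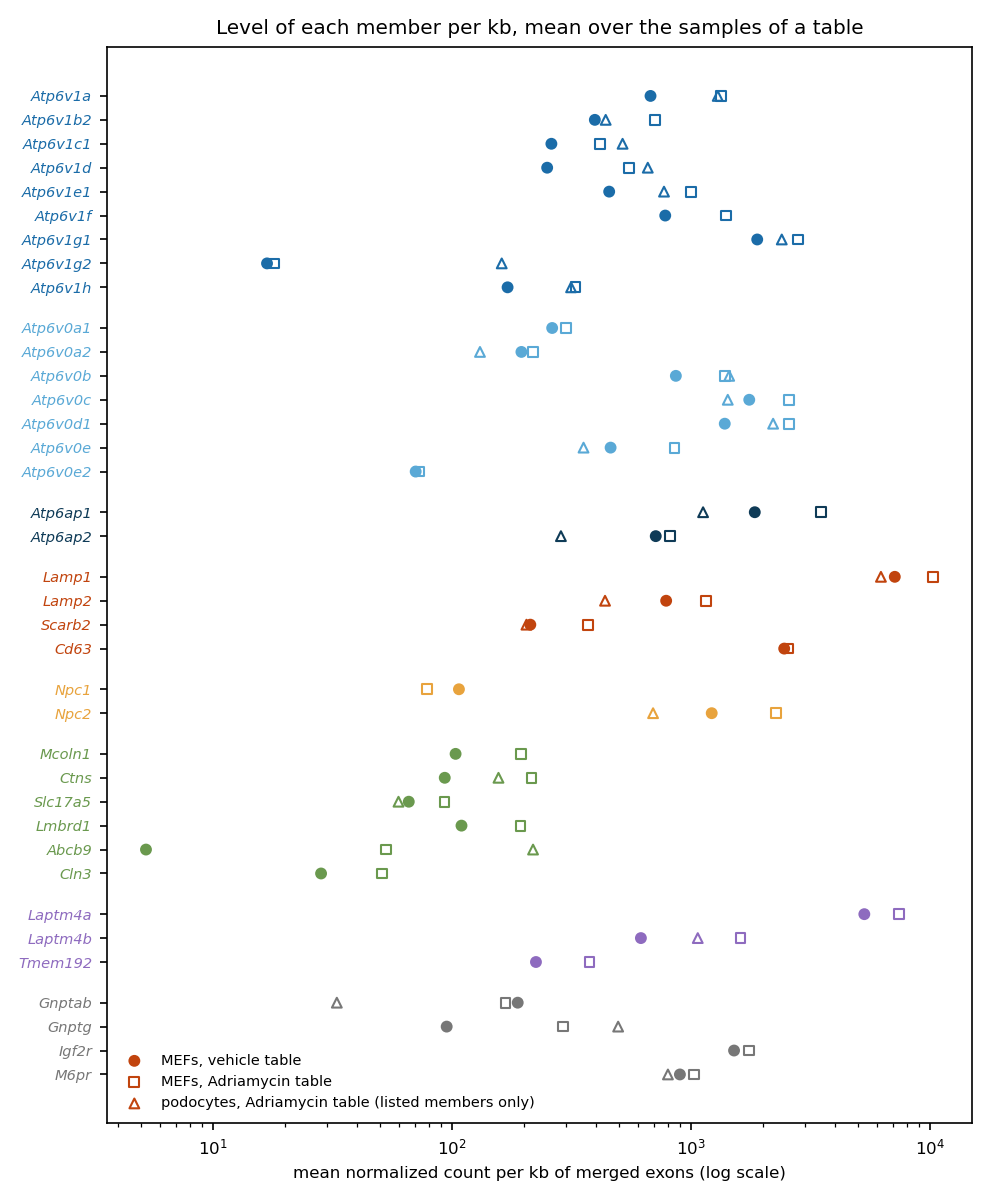
Mean normalized count per kb of merged exons of each gene, on a log scale, over the samples of each table (circles: MEFs with vehicle; squares: MEFs with Adriamycin; triangles: podocytes with Adriamycin, for the 26 genes listed there). The tables were normalized separately, so symbols compare genes within a table; Lamp1 is highest in each of the 3.

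MofKO and wild-type MEFs were next set against each other after Adriamycin. Again 27 of the 37 genes were higher, with 1 lower, where 16.6% of all 14139 genes tested were higher and 16.1% lower in the authors' deposited table. The median log2 fold change of the 37 was 0.47 in the authors' deposited table, against -0.02 over all genes tested. The MEF tables share no sample, and 25 of the 37 genes rose in both, as did 10.5% of the 13973 genes tested in both. They are not the same 27, since Atp6v0a1 and Slc17a5 rose only past the threshold of the vehicle table, and Abcb9 and Igf2r only past that of the Adriamycin table. Across the 37 genes the fold changes of both tables had a Pearson r of 0.60, and across all 13973 genes tested in both it was 0.70; genes are not independent replicates.

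In the pump, 8 of 9 V1 genes, 4 of 7 V0 genes and both accessory genes rose with Adriamycin. Atp6v1b2 rose by 0.73 ± 0.10, Atp6v1h by 0.59 ± 0.09, Atp6v1g1 by 0.56 ± 0.10 and Atp6v1d by 0.56 ± 0.09 in the authors' deposited table. The other V1 genes that rose were Atp6v1c1 (0.51 ± 0.09), Atp6v1a (0.51 ± 0.10), Atp6v1e1 (0.49 ± 0.10) and Atp6v1f (0.35 ± 0.09) in the authors' deposited table. Of the V0 genes, Atp6v0d1 (0.70 ± 0.09, adjusted p 9.84e-12), Atp6v0b (0.47 ± 0.10), Atp6v0c (0.46 ± 0.08) and Atp6v0e (0.22 ± 0.08) rose in the authors' deposited table. The a subunits did not pass: Atp6v0a1 was at 0.20 ± 0.11 and Atp6v0a2 at -0.20 ± 0.09 (adjusted p 0.0641) in the authors' deposited table. Atp6ap2 (0.89 ± 0.13) and Atp6ap1 (0.48 ± 0.08) rose in the authors' deposited table. The scarce forms Atp6v1g2 (-0.24 ± 0.31) and Atp6v0e2 (-0.25 ± 0.23) again did not pass in the authors' deposited table.

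Outside the pump, Npc2 rose by 0.88 ± 0.08 (1.84-fold, adjusted p 3.66e-23) in the authors' deposited Adriamycin table. Lamp1 rose by 0.49 ± 0.06 (adjusted p 1.23e-12), Scarb2 by 0.67 ± 0.09 (8.96e-12), Cd63 by 0.48 ± 0.08 and Lamp2 by 0.47 ± 0.08 in the authors' deposited table, so 4 of 4 glycoprotein genes rose again. Laptm4b (0.68 ± 0.12), Mcoln1 (0.63 ± 0.11), Ctns (0.44 ± 0.14), Tmem192 (0.42 ± 0.13), Npc1 (0.39 ± 0.11) and Laptm4a (0.34 ± 0.07) were higher too in the authors' deposited table. Abcb9 rose by 0.86 ± 0.18 (mean normalized count 298, authors' deposited table). Lmbrd1 was the only 1 of the 37 to fall, at -0.47 ± 0.14 (adjusted p 0.00352) in the authors' deposited table. Of the tagging and sorting genes Igf2r rose (0.55 ± 0.17, adjusted p 0.00526), while Gnptab (-0.04 ± 0.12), Gnptg (0.15 ± 0.11) and M6pr (-0.16 ± 0.13) did not pass in the authors' deposited table. Cln3 (0.28 ± 0.13, adjusted p 0.0920) and Slc17a5 (0.06 ± 0.14) did not pass either in the authors' deposited table.

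**Figure D3:**
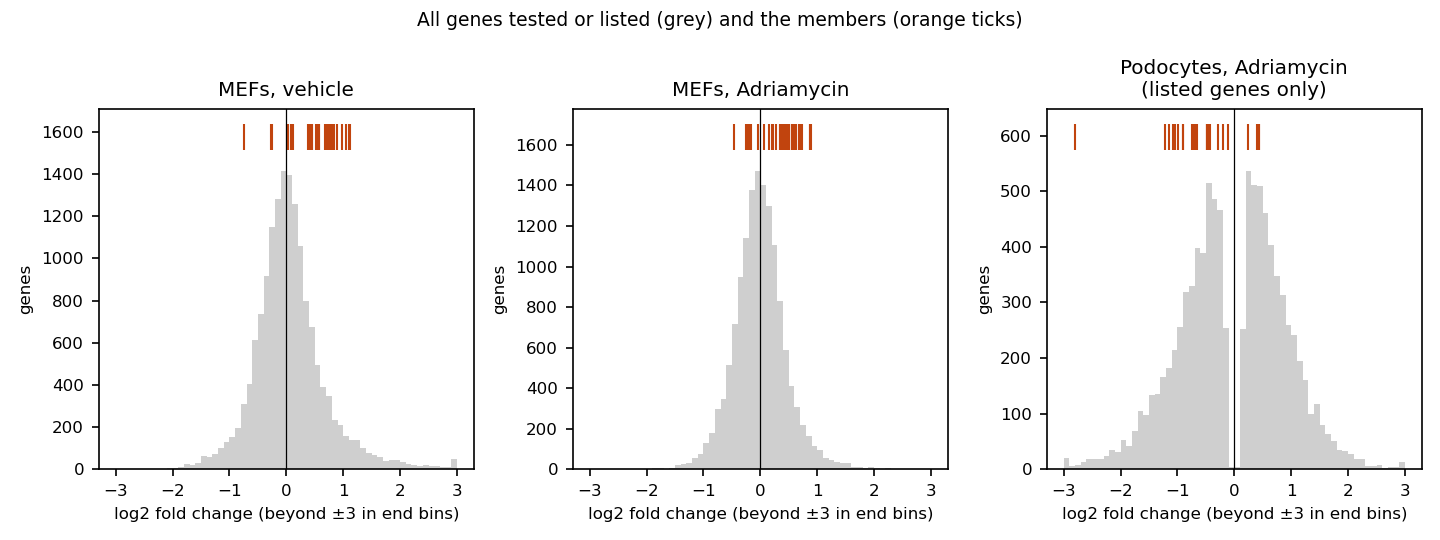
Histograms of the log2 fold change of all genes tested in MEFs with vehicle (left) and Adriamycin (middle) and of all genes listed in podocytes with Adriamycin (right), with the 37, 37 and 26 genes described here as ticks above them. The ticks lie mostly to the right of 0 in MEFs (medians of 0.57 and 0.47) and mostly to the left in podocytes (median of -0.57); the gap at 0 on the right is the threshold of that table.

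Macrophages are rich in lysosomes, so their markers were read beside these counts. With vehicle, 8 of 14 tested macrophage and leukocyte markers were higher and 0 lower, 9 at an unadjusted p below 0.05, and none of the 15 listed was at a mean count of 0 in the authors' deposited table. Among those that rose were Emr1 (1.21 ± 0.25) and Lyz2 (1.29 ± 0.36), while Csf1r (-0.12 ± 0.25) and Ptprc (0.36 ± 0.30) did not pass in the authors' deposited table. Their mean normalized counts summed to 4232 over the list in the authors' deposited table. With Adriamycin 0 of 13 tested markers passed, by the adjusted p of DESeq2 or at an unadjusted p below 0.05. Of the 13, 10 had a value above 0, from Lyz2 (0.73 ± 0.39) and Fcer1g (0.56 ± 0.32) down to Emr1 (0.17 ± 0.22), in the authors' deposited table. Those below 0 were Itgam (-0.46 ± 0.25), Csf1r (-0.43 ± 0.26) and Ptprc (-0.25 ± 0.33) in the authors' deposited table. The summed count was 6402 there. The part of macrophage RNA in the results of either MEF table was not tested. Of the other markers, 0 of 3 osteoclast and 0 of 5 endothelial genes tested with vehicle passed the adjusted p of DESeq2 (0 and 0 at an unadjusted p below 0.05), and 2 of 3 epithelial and 2 of 11 podocyte genes were higher with 1 podocyte gene lower, in the authors' deposited table. With Adriamycin 1 of 3 epithelial genes was higher, Cldn4 (2.19 ± 0.37), and of 11 podocyte genes 1 was higher and 3 lower, in the authors' deposited table. There 0 of 3 osteoclast and 0 of 4 endothelial genes passed the adjusted p of DESeq2 (0 and 1 at an unadjusted p below 0.05).

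Whether Adriamycin changed the effect of the knockout was tested gene by gene, as the log2 fold change under the drug minus the one under vehicle (a z test with Benjamini-Hochberg adjustment over 13973 genes). Of the 37 genes, 4 had a lower and 1 a higher value with the drug, where 3.61% of all genes were lower and 3.49% higher. The difference was below 0 for 30 of the 37, with a median of -0.19 against -0.02 over all genes, and 32 of the 37 did not pass. For Lamp2 it was -0.50 ± 0.11 (SE, adjusted p 0.000579), a rise of 1.96-fold with vehicle against 1.39-fold with Adriamycin. Laptm4a differed by -0.34 ± 0.10 (adjusted p 0.0106) and the catalytic pump gene Atp6v1a by -0.38 ± 0.13 (adjusted p 0.0410), and both rose in each of the authors' deposited tables. Lmbrd1 differed by -0.56 ± 0.18 (adjusted p 0.0338), from 0.10 with vehicle to -0.47 with the drug. Abcb9 moved the other way by 1.62 ± 0.41 (adjusted p 0.00346), from -0.75 to 0.86, on a mean count of 29.4 with vehicle in the authors' deposited table. The call for Atp6v1a was lost when the differences were centred on their median (adjusted p 0.0571).

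**Figure D4:**
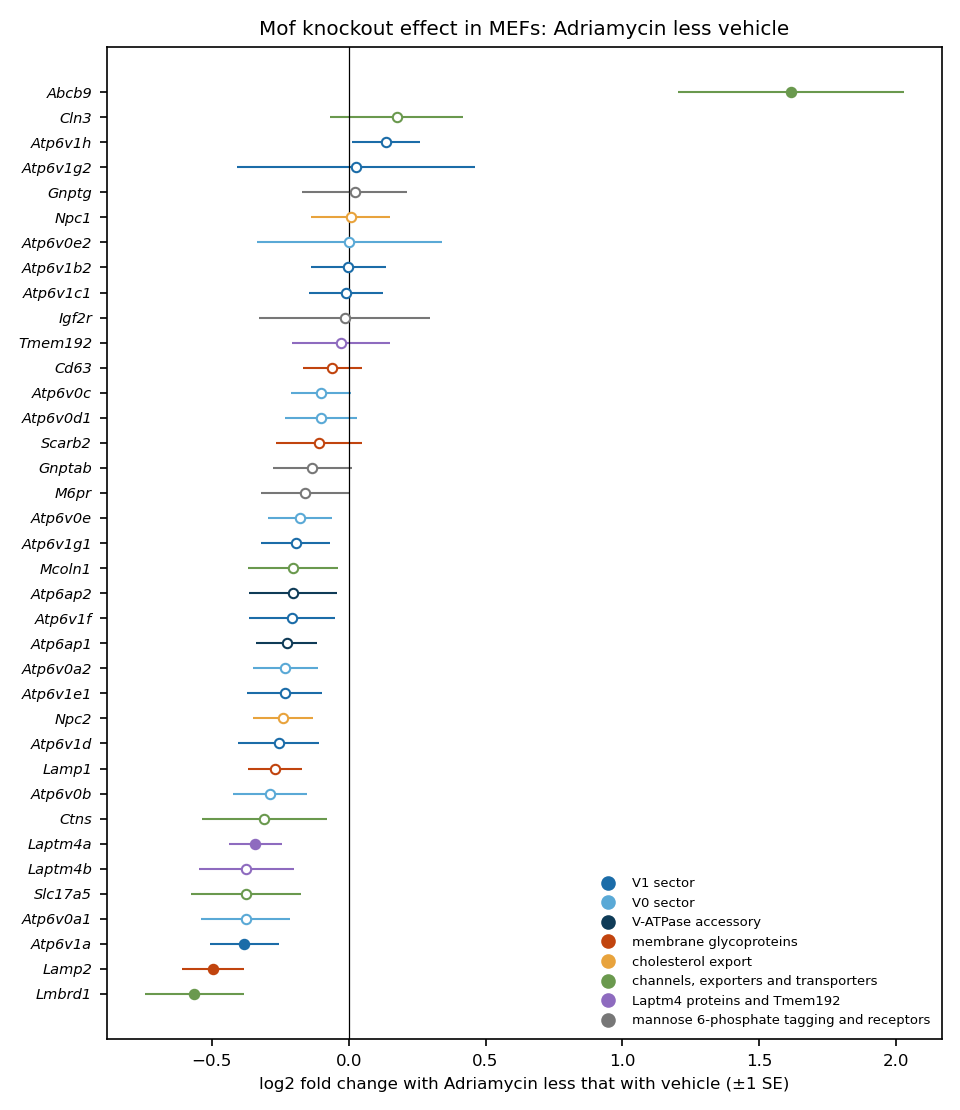
The log2 fold change of MofKO over wild-type MEFs under the drug minus the one under vehicle is shown with bars of 1 SE for each of the 37 genes, sorted. The 5 filled points passed the z test: Abcb9 at 1.62, and Laptm4a, Atp6v1a, Lamp2 and Lmbrd1 between -0.34 and -0.56.

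The Mof knockdown in podocytes was then read under vehicle. Of the 37 genes, 6 were listed, 2 higher and 4 lower, where 8.70% of the 13876 genes tested were higher and 5.64% lower in the authors' deposited table. An unlisted gene either did not pass or was not tested, which cannot be told apart here. Laptm4a (0.33 ± 0.10) and Lamp2 (0.27 ± 0.08, adjusted p 0.00940) rose in the authors' deposited table, and Scarb2 (-0.62 ± 0.18, adjusted p 0.00799), Gnptab (-0.42 ± 0.12, adjusted p 0.00721), Atp6v1d (-0.30 ± 0.10) and M6pr (-0.22 ± 0.08) fell. Of the 18 pump genes, Atp6v1d was thus the only 1 listed.

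With Adriamycin, the genes of the pump and the lysosomal membrane were mostly lower in the knockdown. Of the 37 genes, 22 were lower and 4 higher in the knockdown, where 27.9% of the 17184 genes tested were lower and 27.8% higher in the authors' deposited table. The median log2 fold change of the 26 listed genes was -0.57, against -0.12 over all 9578 genes listed in the authors' deposited table. This drug dose was 0.25 µg/ml, above that of the MEFs.

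All 8 listed V1 genes fell. Subunit H, Atp6v1h, fell to 48.7% of the control level (log2 fold change -1.04 ± 0.05, adjusted p 2.61e-103) and subunit E, Atp6v1e1, to 53.6% (-0.90 ± 0.05, 1.15e-76) in the authors' deposited table. Smaller values were those of Atp6v1b2 (-0.67 ± 0.05), Atp6v1d (-0.65 ± 0.05), Atp6v1g1 (-0.47 ± 0.05), Atp6v1c1 (-0.19 ± 0.05) and the catalytic Atp6v1a (-0.10 ± 0.04, adjusted p 0.0385) in the authors' deposited table. The neuronal form Atp6v1g2, scarce in MEFs, was listed (mean normalized count 405) and fell by 0.90 ± 0.12 on the log2 scale in the authors' deposited table. The subunits of the sector thus did not fall to the same extent: Atp6v1a and Atp6v1h, whose products meet in the same complex, stood at 93.1% and 48.7% of the control level in the authors' deposited table.

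In the V0 sector, Atp6v0d1 fell to 50.5% of control (-0.99 ± 0.05, adjusted p 1.46e-96), and Atp6v0b (-0.48 ± 0.05), Atp6v0e (-0.45 ± 0.06) and Atp6v0c (-0.29 ± 0.05) fell by less, in the authors' deposited table. Atp6v0a2 rose by 0.24 ± 0.07 (adjusted p 0.00328) in the authors' deposited table. Atp6v0a1 was not listed. The accessory subunits parted, with Atp6ap1 at -0.71 ± 0.05 and Atp6ap2 higher by 0.40 ± 0.08 (adjusted p 7.33e-07) in the authors' deposited table.

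Of the genes outside the pump, Abcb9 had the largest fall, -2.81 ± 0.08 (adjusted p 4.89e-286, mean normalized count 1223, authors' deposited table), which leaves 14.3% of the control level. Npc2 (-1.22 ± 0.05, 42.8% of control, adjusted p 9.58e-123), Scarb2 (-1.16 ± 0.06, 44.9%) and Laptm4b (-1.08 ± 0.06, 47.2%) also fell in the authors' deposited table. Slc17a5 (-0.67 ± 0.13), Lamp1 (-0.47 ± 0.04), Lamp2 (-0.45 ± 0.04) and Ctns (-0.43 ± 0.09) fell too in the authors' deposited table. The tagging and sorting genes split: M6pr (0.44 ± 0.05, adjusted p 5.19e-21) and Gnptab (0.43 ± 0.14, adjusted p 0.00479) rose, and Gnptg fell (-0.75 ± 0.07), in the authors' deposited table. Exons of Gnptg share 1113 of their 2249 bases with Unkl on the opposite strand, and Unkl rose by 0.59 ± 0.13 there in the authors' deposited table. The 11 genes not listed were Atp6v0a1, Atp6v0e2, Atp6v1f, Cd63, Cln3, Igf2r, Laptm4a, Lmbrd1, Mcoln1, Npc1 and Tmem192. In podocytes with Adriamycin, macrophage markers were 4 lower and 1 higher of the 5 listed, and the podocyte markers 6 higher and 2 lower of the 8 listed, in the authors' deposited table.

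The direction in the drug-treated podocytes was opposite to that in the drug-treated MEFs. Of the 37 genes, 20 passed in both Adriamycin tables, and 19 of these were higher in MofKO MEFs and lower in Mof-knockdown podocytes. The remaining gene, Atp6ap2, rose in both. Opposite signs were widespread in these tables, at 74.5% of all 3191 genes that passed in both. Of the 1674 genes higher in MEFs and called in podocytes, 75.1% were lower in podocytes, and over all 8842 genes compared the fold changes had a Pearson r of -0.38. Across the 26 listed genes r was -0.47. By a z test of the difference (podocytes less MEFs, adjusted over the 8842 genes), 22 of 26 genes were lower in podocytes and 3 higher, where 38.8% of all genes were lower and 40.5% higher. For the 19 genes that had passed in both tables with opposite signs, a difference was largely fixed in advance. The test covers only genes listed in podocytes, whose values were selected for size, and the cell type, the dose and the way MOF was removed all differ between these tables and cannot be told apart.

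The largest of these differences by p was that of Npc2, -2.10 ± 0.10 (SE, adjusted p 2.28e-99), from a 1.84-fold rise in MEFs to 42.8% of control in podocytes in the authors' deposited tables. Abcb9 differed by -3.67 ± 0.20 (adjusted p 2.10e-75), Scarb2 by -1.83 ± 0.11 (3.01e-59), Atp6v0d1 by -1.68 ± 0.10 (3.88e-56) and Atp6v1h by -1.63 ± 0.10 (5.73e-56). The 3 genes with a higher value in podocytes were M6pr (0.59 ± 0.14), Gnptab (0.48 ± 0.18) and Atp6v0a2 (0.44 ± 0.11), none of which had passed in MEFs. For Atp6v1g2 the difference was -0.66 ± 0.33 and did not pass (adjusted p 0.0568, with a 95% interval from -1.31 to -0.01).

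**Figure D5:**
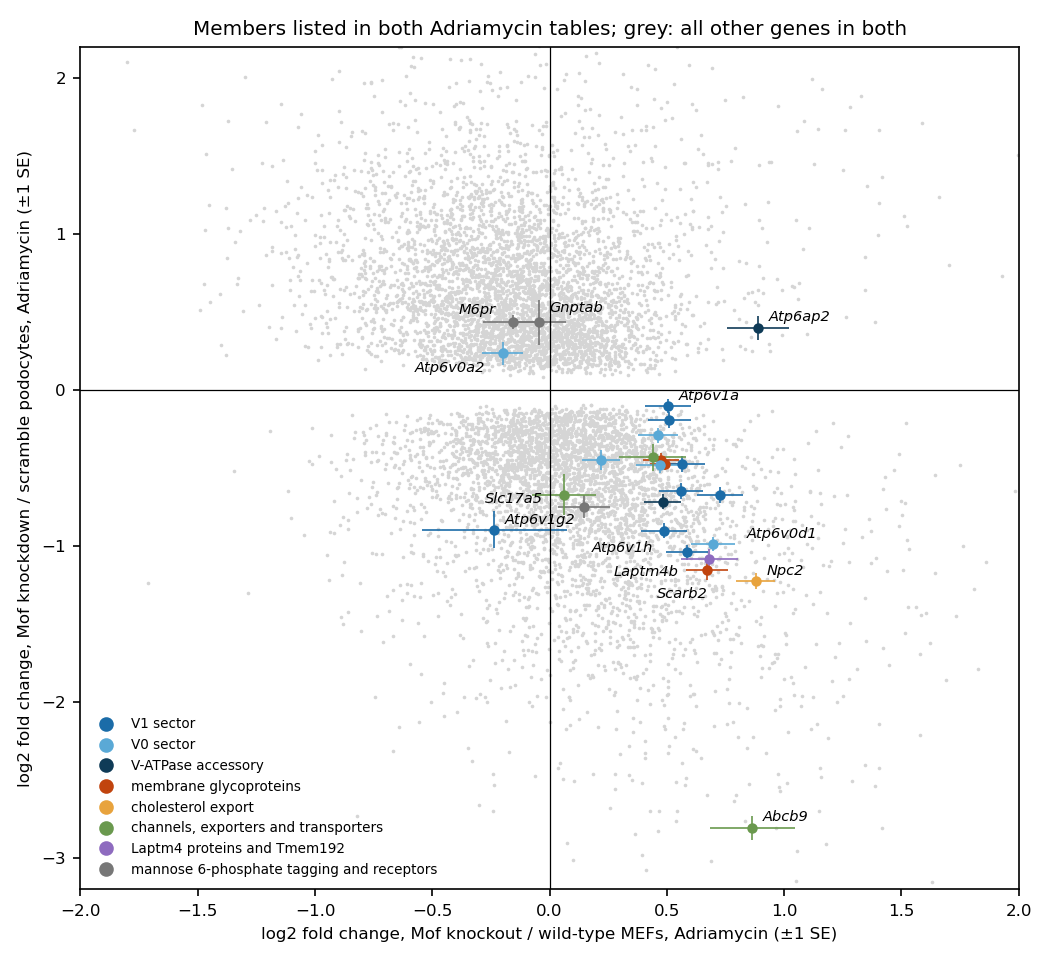
Each coloured point is 1 of the 26 genes listed in both Adriamycin tables, with its log2 fold change in MEFs on the x axis and in podocytes on the y axis and bars of 1 SE; grey points are the other genes in both tables, some of which lie beyond the axes. Of the 20 genes that passed in both tables, 19 sit in the lower right quadrant, Atp6ap2 sits in the upper right, and the band free of points around 0 on the y axis is the threshold of the podocyte table.

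With vehicle the difference between podocytes and MEFs could be tested for the 6 listed genes, and 5 were lower in podocytes, where 24.9% of all 1897 genes compared were lower and 31.0% higher. Here too only genes that passed in podocytes were covered, and the cell type and the way MOF was removed cannot be told apart. Scarb2 differed by -1.40 ± 0.22, Atp6v1d by -1.12 ± 0.15, Lamp2 by -0.70 ± 0.11, Gnptab by -0.51 ± 0.15 and Laptm4a by -0.35 ± 0.12. Lamp2 and Laptm4a rose in both cell types under vehicle, and Scarb2 and Atp6v1d had opposite signs, 2 of the 4 that passed in both (38.7% of all 890 such genes did). For Scarb2 and Atp6v1d a difference was thus largely fixed in advance.

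Within podocytes, 5 of the 37 genes were listed with both vehicle and Adriamycin, and all 5 differed between them (63.4% of the 1518 genes compared did). Of the 5, 3 had opposite signs, against 34.3% of the 1518. Every gene compared had already passed under both conditions, so for genes with opposite signs a difference was largely fixed in advance. Lamp2 changed sign with the drug, from 0.27 to -0.45 (difference -0.72 ± 0.09, adjusted p 2.50e-14 by the z test). The sorting genes changed the other way, M6pr from -0.22 to 0.44 (0.66 ± 0.09) and Gnptab from -0.42 to 0.43 (0.86 ± 0.19). Scarb2 and Atp6v1d were lower in both tables and lower still with the drug, with differences of -0.54 ± 0.19 and -0.35 ± 0.11.

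Other genes of the same pathways were read from lists of 119 symbols. Over all genes tested in MEFs, 17.8% were higher and 19.6% lower with vehicle, and 16.6% and 16.1% with Adriamycin, in the authors' deposited tables. In podocytes 8.70% were higher and 5.64% lower with vehicle, and 27.8% and 27.9% with Adriamycin, in the authors' deposited tables. The podocyte counts of these lists are out of the genes listed, all of which had passed. Soluble lysosomal hydrolases and activators rose in 28 of 47 and fell in 4 with vehicle in MEFs, with a median of 0.39, and rose in 19 and fell in 7 with Adriamycin in the authors' deposited tables. With vehicle, Ctsd (1.41 ± 0.10) and Aga (1.38 ± 0.12) rose and Acp2 (-0.53 ± 0.10) and Smpd1 (-0.33 ± 0.09) fell in the authors' deposited table. In podocytes given the drug 24 fell and 13 rose of the 37 listed, with Ctsa (-1.42 ± 0.05) and Fuca1 (-1.10 ± 0.05) among those that fell and Scpep1 (1.08 ± 0.07) and Ctso (1.24 ± 0.13) among those that rose, in the authors' deposited table.

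Other lysosomal membrane proteins gave 13 higher and 2 lower of 28 tested in MEFs with vehicle, 7 and 1 of 27 with Adriamycin, and 6 and 17 of the 23 listed in podocytes with Adriamycin, in the authors' deposited tables. Tmem55b rose by 0.76 ± 0.11 in MEFs with vehicle, and Spns1 (-1.29 ± 0.06) and the chloride exchanger gene Clcn7 (-0.90 ± 0.04) fell in podocytes with Adriamycin, in the authors' deposited tables. Other isoforms and regulators of the pump were mixed: 4 higher and 1 lower of 13 with vehicle, 2 and 3 of 12 with Adriamycin in MEFs, and 5 and 4 of the 9 listed in podocytes with Adriamycin, in the authors' deposited tables. Among them Tcirg1, a further form of subunit a, followed the pump, with 0.72 ± 0.11 and 0.52 ± 0.17 in MEFs and -0.93 ± 0.05 in podocytes with the drug, in the authors' deposited tables. Vma21, an assembly chaperone of the V0 sector, went against it: -0.65 ± 0.11 in MEFs and 1.26 ± 0.09 in podocytes with Adriamycin in the authors' deposited tables.

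Of the TFEB family and the mTOR machinery at the lysosome, 10 were higher and 2 lower of 24 in MEFs with vehicle, 11 and 5 of 23 with Adriamycin, and 3 higher and 12 lower of the 15 listed in podocytes with Adriamycin, in the authors' deposited tables. Rragc, a GTPase that recruits mTOR to lysosomes, rose by 0.78 ± 0.07 and 0.68 ± 0.07 in MEFs and fell by 1.04 ± 0.05 in podocytes with the drug, in the authors' deposited tables. Flcn, which acts on it, fell by 1.28 ± 0.07 in those podocytes in the authors' deposited table. Tfeb itself, chosen after its values were seen, did not pass in MEFs (-0.33 ± 0.23 and -0.10 ± 0.22) and fell in podocytes with Adriamycin (-1.39 ± 0.13) in the authors' deposited tables. Its relative Tfe3 rose in MEFs with vehicle (0.40 ± 0.08) and Adriamycin (0.31 ± 0.12) in the authors' deposited tables. Tfec rose with vehicle (1.36 ± 0.51, mean normalized count 13.6) in the authors' deposited table. With Adriamycin it had a like value, 1.42 ± 0.48 (mean normalized count 12.2), but no adjusted p in the authors' deposited table. Mitf passed in neither MEF table (0.26 ± 0.25 and 0.16 ± 0.20, authors' deposited tables). In podocytes with vehicle, 2 pump regulators, 6 of the other membrane genes (3 higher, 3 lower), 8 hydrolases (6 higher, 2 lower) and 0 of the TFEB list were listed in the authors' deposited table.

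Exons of 12 of the 37 genes overlap those of a gene on the opposite strand. No source used here says if reads were counted by strand. Gnptg had the largest share (49.5% with Unkl), followed by Atp6v0b (11.8% with Gm12841), Atp6v0a2 (9.86% with 4930404A12Rik) and Lamp1 (9.31% with Grtp1), and for the others it was at most 8.51% for any partner. Fold changes made by the version of DESeq2 that the authors name look shrunk towards 0, most for genes with few reads. Ocstamp, at a mean normalized count of 0.157 in MEFs with vehicle, had -0.15 ± 0.31 in the authors' deposited table. For a gene such as Abcb9, scarce in MEFs with vehicle, a difference between tables may thus compare values shrunk to unlike extents.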

How the data were processed

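The series holds poly(A) RNA-seq of 24 mouse samples in 8 groups of 3. Per the submitters' processing notes, TopHat2 2.0.13, featureCounts 1.4.5-p1, DESeq2 1.4.1 and build GRCm38 were used, with no settings given. The deposited tables hold, per the file headers, the mean normalized count of each gene, a signal averaged by the authors over the samples of a table. They also hold the log2 fold change and its SE as deposited by the authors, the Wald score (fold change over SE) deposited by the authors, and the p-value and adjusted p-value deposited by the authors. No values per sample were used here, so library depth is unknown and limits the precision in a way that cannot be given. In podocytes only genes past an adjusted p of 0.05 are listed; how many were tested (13876 and 17184) was recovered from the ratio of adjusted to raw p. The sign is Mof-depleted over control, read from Kat8. No source used here says whether fold changes were shrunk, but the small values and SEs of genes with almost no reads look shrunk.

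Members were matched by symbol, and they, the pathway lists and the markers were chosen with earlier results of these data known. Differences between tables, which share no samples, were tested by a z test on the deposited values with Benjamini-Hochberg adjustment over all genes compared. The code was run on simulated MEF values with normal noise of the deposited SEs, which the z test itself assumes. That run could not check the effect of shrinkage or of the threshold of the podocyte tables. All 37 genes are named. In the other lists the genes named were those of smallest adjusted p in a direction. Tfeb, Tfe3, Tfec and Mitf were added after their values were seen. Levels per kb use merged exons of GENCODE M21. Promoters are those of RefSeq. Alternatives were a stricter adjusted p, a minimum fold change, a minimum mean count, median centring and another adjustment. Python 3.11.15, pandas 2.3.3 and scipy 1.17.1 were used. Promoter entries were not found for Atp6v1c1, Npc1, Atp6v0a2, Atp6v1g1, Atp6v1b2, Atp6v1h, M6pr and Laptm4b. Some genes of the other lists are not reported here by name.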

Additional observations from a re-analysis of the deposited data

Results flagged for a closer look

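Each result here stands out because the effect of removing MOF differed between 2 conditions by a z test of the difference itself, with adjusted p below 0.05. All values are differences of log2 fold changes with their SE. In MEFs, Adriamycin minus vehicle, the genes were Lamp2 (-0.50 ± 0.11), Abcb9 (1.62 ± 0.41), Laptm4a (-0.34 ± 0.10), Lmbrd1 (-0.56 ± 0.18) and Atp6v1a (-0.38 ± 0.13). In podocytes, Adriamycin minus vehicle, they were Lamp2 (-0.72 ± 0.09), M6pr (0.66 ± 0.09), Gnptab (0.86 ± 0.19), Atp6v1d (-0.35 ± 0.11) and Scarb2 (-0.54 ± 0.19). Only podocyte genes that had passed under both conditions could be compared, so for opposite signs a difference was largely fixed in advance. Between cell types under vehicle, podocytes minus MEFs, the genes were Atp6v1d (-1.12 ± 0.15), Scarb2 (-1.40 ± 0.22), Lamp2 (-0.70 ± 0.11), Gnptab (-0.51 ± 0.15) and Laptm4a (-0.35 ± 0.12). This comparison covers only genes that passed in podocytes, and the cell type and way of removing MOF cannot be told apart. Scarb2 and Atp6v1d had passed in both cell types with opposite signs, so their difference was largely fixed in advance.

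Between cell types under Adriamycin the drug dose also differed, and the values of podocytes minus MEFs fall into the same groups as above. For the pump they were Atp6v0d1 (-1.68 ± 0.10), Atp6v1h (-1.63 ± 0.10), Atp6ap1 (-1.20 ± 0.09), Atp6v1e1 (-1.39 ± 0.11), Atp6v1b2 (-1.40 ± 0.11), Atp6v1d (-1.21 ± 0.11), Atp6v1g1 (-1.04 ± 0.11), Atp6v0b (-0.95 ± 0.11), Atp6v0c (-0.75 ± 0.10), Atp6v1c1 (-0.70 ± 0.10), Atp6v0e (-0.67 ± 0.10), Atp6v1a (-0.61 ± 0.11), Atp6v0a2 (0.44 ± 0.11) and Atp6ap2 (-0.49 ± 0.15). For the other lysosomal genes they were Npc2 (-2.10 ± 0.10), Abcb9 (-3.67 ± 0.20), Scarb2 (-1.83 ± 0.11), Lamp1 (-0.96 ± 0.07), Laptm4b (-1.76 ± 0.14), Lamp2 (-0.92 ± 0.09), Gnptg (-0.89 ± 0.13), Ctns (-0.87 ± 0.17), M6pr (0.59 ± 0.14), Slc17a5 (-0.73 ± 0.19) and Gnptab (0.48 ± 0.18). Genes listed in podocytes were selected for passing there, and the cell type, dose and way of removing MOF cannot be told apart. For the 19 that had passed in both cell types with opposite signs, a difference was largely fixed in advance.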

How the results depend on the processing

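No paired analysis was possible because the tables hold comparisons and not values per sample; leaving out single replicates was not run for the same reason. Requiring an absolute log2 fold change of at least 0.5 left 14 higher and 0 lower genes in MEFs with Adriamycin, 0 higher and 1 lower in podocytes with vehicle, and 0 higher and 13 lower in podocytes with Adriamycin. An adjusted p below 0.01 left 2 lower genes in podocytes with vehicle and 1 lower difference between drug and vehicle in MEFs. A mean count of at least 100 in both tables left 0 higher differences in MEFs, since Abcb9 (mean count 29.4 with vehicle in the authors' deposited table) drops out. The other counts of members stayed within 1.5 times under these alternatives, under median centring and under adjustment over every gene with a p. Values near 0 turned sign when centred on the median: M6pr in MEFs with vehicle (-0.00498), and the MEF differences of Atp6v1b2 (0.0209), Atp6v1c1 (0.0124) and Igf2r (0.00776). Centring took the MEF difference of Atp6v1a to an adjusted p of 0.0571, and those between cell types of M6pr with vehicle and Atp6v1g2 with Adriamycin to 0.0243 and 0.0427. Depth per library is unknown, so how far it limits the scarce genes Abcb9, Atp6v1g2 and Atp6v0e2 in MEFs cannot be given.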
